A study of Mus musculus with 9 samples.

Results

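The 109 genes described here are those of oxidative phosphorylation, the set of protein complexes in the inner mitochondrial membrane that pass electrons to oxygen and make ATP. They were chosen by name from the 32137 genes counted: names that begin with Nduf, Uqcr, Cox4 to Cox8 or Atp5, the 4 genes Sdha to Sdhd, and the mitochondrial genes whose names begin with mt-Nd, mt-Co, mt-Cytb or mt-Atp, leaving out names with -ps. The rule used no measured value. It gave 96 genes of the nuclear genome, with 41 for complex I, 8 for its assembly, 4 for complex II, 8 for complex III, 17 for complex IV and 18 for ATP synthase, and the 13 protein-coding genes of the mitochondrial genome. Ndufa4 was placed with complex I by its name, although its product is now assigned to complex IV. The symbol Atp5o stands under 2 gene identifiers, ENSMUSG00000022956 and ENSMUSG00000116933, which share sequence, and Cox6c2, Ndufa11b, Ndufb4c and Ndufs6b are annotated as processed pseudogenes. Nuclear and mitochondrial genes are reported apart.

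The 9 RNA libraries came from cells sorted out of mouse bile duct organoids, which are epithelial cultures grown in a gel from the ducts of the liver. All organoids came from 1 male animal of mixed background that carried Axin2CreERT2+/- and R26-LSL-tdTom+/-: Cre made where the Wnt target Axin2 is active, switched on by 4-hydroxytamoxifen, turns on the red reporter tdTomato for good. Every organoid was expanded for 2 to 4 days, differentiated for 11 days and given 3 uM dexamethasone and 500 nM 4-hydroxytamoxifen over the last 24 h. The untreated group was the reporter-negative cells of cultures that had not received Rspo1 (R-spondin 1), which strengthens Wnt signalling from outside the cell. The Rspo1-negative and Rspo1-positive groups were the reporter-negative and reporter-positive cells of organoids that received 100 ng/ml Rspo1 in the same 24 h. Each group had 3 libraries, from passages 5, 6 and 10 of the line, so that the spread between libraries is that of repeated cultures of 1 animal. Values of 3 libraries are given below in the order of passages 5, 6 and 10.

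Complexes I and II take electrons from NADH and succinate, ubiquinone carries them to complex III, cytochrome c carries them to complex IV, and complex IV hands them to oxygen. Complexes I, III and IV pump protons, and ATP synthase lets the protons flow back to make ATP. Most subunits are made from nuclear genes and imported, while the mitochondrial genome encodes core subunits of complexes I, III and IV and of ATP synthase, which are transcribed as long precursors inside the organelle and cut into separate RNAs. The complexes therefore need products of both genomes. Complex II is the exception, since all of its subunits are nuclear, and it also works in the citric acid cycle.

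Total counts per library ran from 23423979 to 37351448, and 17011 genes passed the filter on low counts and were tested. Axin2 had 1.32, 1.74 and 5.96 CPM (counts scaled to the library size) in untreated cells, 44.4, 97.4 and 124 in Rspo1-negative cells and 75.7, 88.7 and 155 in Rspo1-positive cells, so that every library of both Rspo1 groups lay above every untreated one. The duct markers Krt7, Krt19, Epcam, Sox9, Spp1 and Cdh1 summed to between 7951 and 9855 CPM in untreated cells, 8027 and 9841 CPM in Rspo1-negative cells and 6859 and 7037 CPM in Rspo1-positive cells, so the Rspo1-positive libraries were the lowest; the part of this in the results below was not tested. The 4 mesenchymal, 3 endothelial and 2 red cell markers found in the files each summed to under 1 CPM, and Lum, Cdh5 and Hbb-bs were at 0 in all libraries. The 4 immune markers found summed to between 5.46 and 23.2 CPM and the 6 hepatocyte markers to between 164 and 545 CPM. The Rspo1-negative libraries stood apart by base composition. Over 17001 genes, the rank correlation of the fold change with the GC content of the transcript was 0.52 for Rspo1-negative over untreated cells and -0.52 for Rspo1-positive over Rspo1-negative cells, but -0.0067 for Rspo1-positive against untreated cells. A fit with an offset for GC content and transcript length in each library was therefore run as well, and its values are given for many of the named genes whose call it ends.

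The mitochondrial genes were not all countable. mt-Co2, mt-Atp6, mt-Atp8, mt-Co3 and mt-Nd4l had between 0 and 4 reads in any library and were not tested, and mt-Nd3 had between 4 and 21 reads. mt-Nd1, mt-Nd2, mt-Nd4, mt-Nd5, mt-Nd6, mt-Cytb and mt-Co1 had between 2974 and 361533. Reads were 75 bases long, and windows of 75 bases were compared between annotated transcripts. Of the windows of mt-Co2, mt-Atp6, mt-Co3, mt-Nd3 and mt-Nd4l, 99.5%, 99.5%, 99.9%, 97.8% and 98.7% also occur in a transcript of another gene. These other genes include unprocessed pseudogenes on chromosome 1 between 24611535 and 24616197, minus strand (GRCm38), a copy of mitochondrial DNA in the nuclear genome, and the pseudogenes Gm28439, Gm10222, Gm28437, Gm10925, Gm28661 and Gm29216 of that copy had between 0 and 6 reads each. The whole of Gm10925, 678 bases, aligned to mt-Atp6, 681 bases, with 0 mismatches. By the same measure, 61.5% of the windows of mt-Nd4, 39.8% of those of mt-Co1, 5.71% of those of mt-Nd2 and 1.66% of those of mt-Nd5 are shared, and none of those of mt-Nd1, mt-Nd6 and mt-Cytb. mt-Atp8 had 0 reads in all libraries although none of its windows occur in another annotated transcript, and whether the genome holds a copy outside annotated transcripts was not tested. How reads with several positions were treated is not given in the sources used here, so the counts of mt-Nd4 and mt-Co1 may be incomplete.

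Windows of 75 bases from 3 genes are shown because they set a gene that could not be counted beside genes that could. The mt-Atp6 window is identical in Gm10925, and the windows of mt-Co1 and mt-Cytb occur in no other annotated transcript.
mt-Atp6, chrM:8230-8304, plus strand: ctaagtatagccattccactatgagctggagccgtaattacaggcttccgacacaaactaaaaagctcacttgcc
mt-Co1, chrM:6063-6137, plus strand: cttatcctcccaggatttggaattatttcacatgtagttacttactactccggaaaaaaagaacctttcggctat
mt-Cytb, chrM:14680-14754, plus strand: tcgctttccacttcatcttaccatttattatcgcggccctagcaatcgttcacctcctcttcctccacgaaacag

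Summed over the set, mitochondrial transcripts were lower in all Rspo1-negative libraries than in all untreated ones, and nuclear transcripts were higher in 2 of the 3 passages. The 96 nuclear genes took 0.862%, 0.866% and 0.823% of all counts in untreated cells, 1.27%, 0.866% and 1.2% in Rspo1-negative cells and 0.909%, 0.736% and 0.886% in Rspo1-positive cells. The high values are those of Rspo1-negative cells at passages 5 and 10, while the Rspo1-negative library of passage 6 is level with the untreated one. The 13 mitochondrial genes took 1.94%, 2.76% and 1.66% in untreated cells, 1.45%, 0.891% and 1.09% in Rspo1-negative cells and 1.59%, 0.942% and 1.35% in Rspo1-positive cells, so that every untreated library lay above every other library. The 95% Wilson interval of each share is at most 0.00561 percentage points to either side and covers counting error only. The ratio of mitochondrial to nuclear counts was 2.25, 3.18 and 2.02 in untreated cells, 1.13, 1.03 and 0.909 in Rspo1-negative cells and 1.75, 1.28 and 1.53 in Rspo1-positive cells. The 3 groups did not overlap in this ratio, with Rspo1-negative cells lowest, Rspo1-positive cells in between and untreated cells highest. These shares and ratios carry no correction for base composition. The tested mitochondrial members had a median GC content of 36.4% and the nuclear ones 50.4%. With the GC and length offset, the median mitochondrial log2 fold change of Rspo1-positive over Rspo1-negative cells went from 0.68 to 0.16. The part of GC content in the ratio was not tested. Cells with fewer mitochondrial transcripts and a smaller number of cells that have them cannot be told apart in these pooled libraries.

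**Figure D1:**
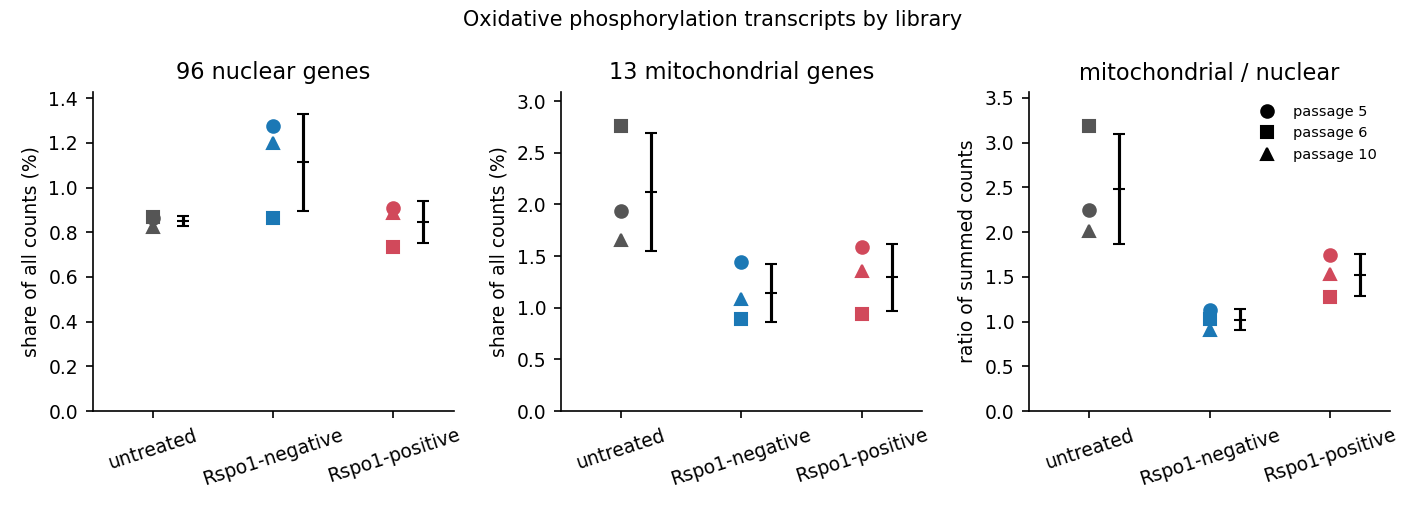
Share of all counts taken by the 96 nuclear and the 13 mitochondrial genes, and the ratio of their summed counts, in each of the 9 libraries; symbols mark the passage, and bars give the mean and SD of 3 libraries. Nuclear shares are highest in Rspo1-negative cells at passages 5 and 10 (1.27% and 1.2%), and the ratio separates the 3 groups, from 0.909 to 1.13 in Rspo1-negative, 1.28 to 1.75 in Rspo1-positive and 2.02 to 3.18 in untreated cells. Shares and ratios carry no correction for GC content.

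The mitochondrial ribosomal RNAs, which come from the same genome but are no members of the list, varied more between libraries of a group than the messages did. They took 0.0405%, 0.129% and 0.0628% of counts in untreated cells, 0.0762%, 0.259% and 0.049% in Rspo1-negative cells and 0.0352%, 0.353% and 0.253% in Rspo1-positive cells. Passage 6 was highest in each group, and the groups overlap. Mitochondrial protein-coding counts were between 2.67 times the ribosomal RNA counts, in the Rspo1-positive library of passage 6, and 47.9 times, in the untreated library of passage 5. The part of RNA selection or collection in these values was not tested.

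Of the 8 tested mitochondrial genes, 6 fell in Rspo1-negative cells relative to untreated ones, at a median log2 fold change of -1.35 over the 8 genes, where 20.0% of all genes tested were called lower. The largest differences were in mt-Nd4 and mt-Nd2, subunits of the membrane arm of complex I that take part in proton pumping. mt-Nd4 (ENSMUSG00000064363, mitochondrial genome 10167 to 11544) had 1189.7, 2343 and 947 CPM in untreated cells and 626, 483 and 354 CPM in Rspo1-negative cells (a log2 fold change of -1.58 with SE 0.27 and adjusted p = 0.00151 by edgeR). The highest Rspo1-negative library lies below the lowest untreated one. mt-Cytb (ENSMUSG00000064370, 14145 to 15288), cytochrome b of complex III and its only mitochondrial subunit, had 4656, 8068 and 3818 CPM in untreated, 2820.0, 1908 and 1382 CPM in Rspo1-negative and 3789, 2909 and 3807 CPM in Rspo1-positive cells. The Rspo1-negative libraries were all below the other 6, and mt-Cytb fell by 1.44 on the log2 scale against untreated cells (SE 0.29, adjusted p = 0.00368 by edgeR). The same held for mt-Nd5 (ENSMUSG00000064367, 11742 to 13565), another proton-pumping subunit, with 875, 1916 and 1278 CPM in untreated and 559.6, 592 and 404 CPM in Rspo1-negative cells, and for mt-Nd6 (ENSMUSG00000064368, 13552 to 14070), with 246, 658 and 404 CPM in untreated and 179.6, 204 and 126 CPM in Rspo1-negative cells. Their log2 fold changes were -1.38 and -1.33, with adjusted p-values of 0.00192 and 0.00371 by edgeR. mt-Nd6 is read from the strand opposite to the other members, and the strand setting of the counting is not given in the sources used here.

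The lower counts were not equal among the mitochondrial genes. mt-Nd2 (ENSMUSG00000064345, 3914 to 4951) had 1224, 1922 and 692 CPM in untreated and 758, 308 and 299 CPM in Rspo1-negative cells; the groups overlap, but the gene was lower at each passage and was called (a log2 fold change of -1.55 with SE 0.33 and adjusted p = 0.00463 by edgeR). mt-Nd1 (ENSMUSG00000064341, 2751 to 3707), with 2291, 3226 and 1551 CPM in untreated and 1963, 1004 and 1029 CPM in Rspo1-negative cells with overlap, fell by 0.86 on the log2 scale (SE 0.28, adjusted p = 0.0342 by edgeR). The mt-Nd1 call was lost without Rspo1-negative replicate 2 or 3 or untreated replicate 2, at log2 fold changes of -0.57, -0.78 and -0.39. mt-Co1 (ENSMUSG00000064351, 5328 to 6872), the catalytic subunit of complex IV, had 7957, 12091 and 6854 CPM in untreated and 7461, 5593 and 7217 CPM in Rspo1-negative cells and was not called (a log2 fold change of -0.42 with SE 0.26 and adjusted p = 0.24 by edgeR). Its Rspo1-negative values overlap the untreated ones and were higher at passage 10. Per kilobase of transcript, the median over the 9 libraries was 4436 CPM for mt-Co1, 3312 for mt-Cytb, 1602 for mt-Nd1, 666 for mt-Nd2, 620 for mt-Nd4, 462 for mt-Nd6 and 446 for mt-Nd5. This order uses the whole length of each transcript, so the levels of mt-Nd4 and mt-Co1, much of whose length lies in windows shared with other loci, may be understated, and the place of mt-Nd4 in it is uncertain; the members that could not be counted have no place. mt-Nd3 had 0.394 ± 0.27 CPM (SD, n = 3) in untreated and 0.385 ± 0.31 CPM (SD, n = 3) in Rspo1-negative cells, within its spread.

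With the GC and length offset 3 of the 6 lower calls held, mt-Cytb at -0.92 with an adjusted p of 0.0122, mt-Nd4 at -0.82 with an adjusted p of 0.0132 and mt-Nd2 at -0.81 with an adjusted p of 0.0334 by edgeR, and the median of the 8 genes was -0.59. mt-Nd5, mt-Nd6 and mt-Nd1 were not called, at -0.68, -0.49 and -0.24. With the offset from the median transcript of each gene mt-Nd2 was lost too (adjusted p = 0.0556), which left mt-Cytb and mt-Nd4. The mitochondrial members are AT-rich, with a median GC content of 36.4% against 50.3% over all genes tested, and all genes under 40% GC had a median of -0.96 in this comparison.

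**Figure D2:**
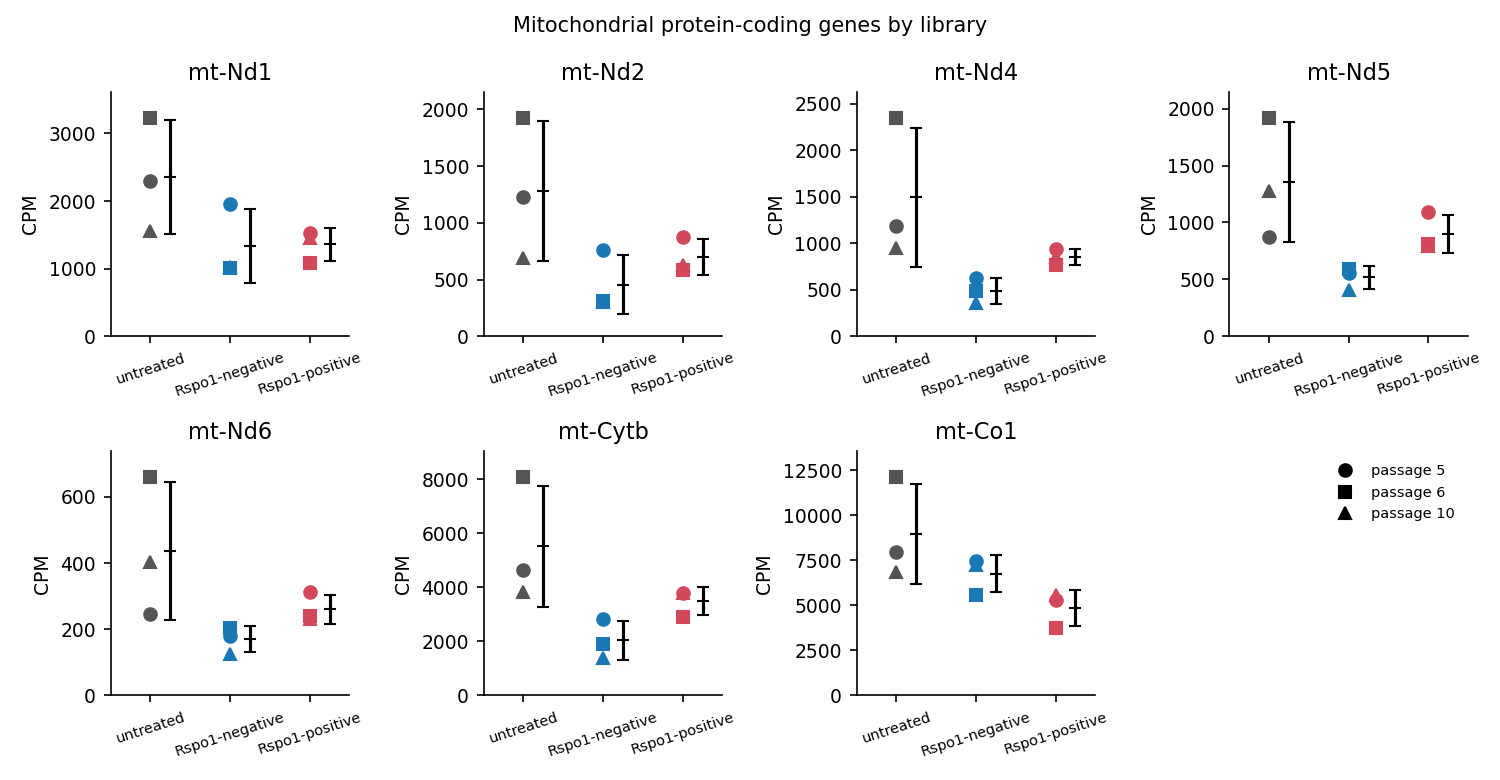
CPM of the 7 mitochondrial genes with ample reads in each library; symbols mark the passage, bars give mean and SD of 3 libraries, and each axis starts at 0. For mt-Nd4, mt-Nd5, mt-Nd6 and mt-Cytb the 3 Rspo1-negative libraries lie below the other 6, and for mt-Co1 the 3 Rspo1-positive libraries do, between 3716 and 5576 CPM.

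Rspo1-positive cells lay between the other groups for most of the 8 tested mitochondrial protein-coding genes. The transfer RNAs of the same genome, which are no members, did not all do so. mt-Ta and mt-Tl1 were higher than in untreated cells (log2 fold changes 2.14 and 1.19, adjusted p = 0.0266 and 0.0411 by edgeR), where 6.44% of all genes were. These calls held in 9 and 7 of 15 alternatives, and each in 1 of the 6 fits without 1 library. All mitochondrial transfer RNAs together had only 361 to 2013 reads per library. Their summed share of counts was 0.0039%, 0.0034% and 0.0026% in Rspo1-positive and 0.0027%, 0.0061% and 0.0036% in untreated cells. mt-Ti, mt-Tm, mt-Te and mt-Tw were not called, at -1.52, -0.84, -0.72 and -0.01. Against Rspo1-negative cells 3 of 8 were higher, where 21.5% of all genes were: mt-Nd4 with 937, 762 and 854 CPM (a log2 fold change of 0.85 with SE 0.26 and adjusted p = 0.0262), mt-Nd5 with 1089, 813 and 796 CPM (log2 fold change 0.82, adjusted p = 0.0213) and mt-Cytb (log2 fold change 0.84, adjusted p = 0.0378), by edgeR. mt-Nd6 had 311, 239.6 and 229.9 CPM and did not pass (adjusted p = 0.0718 by edgeR), although the groups do not overlap. None of the 3 calls held without the passage block, with the offset, or without any of the libraries Rspo1-positive replicate 1 and 3 and Rspo1-negative replicate 2 and 3. Over the 15 alternatives the log2 fold change was as low as 0.15 for mt-Nd4, 0.12 for mt-Nd5 and 0.23 for mt-Cytb. With the offset, mt-Co1 was instead lower in Rspo1-positive cells (-0.95 with an adjusted p of 0.0156 by edgeR). mt-Co1 had 5316, 3716 and 5576 CPM in Rspo1-positive cells, below all 6 other libraries, and was the 1 mitochondrial gene called against untreated cells, where 6.77% of all genes were called lower (a log2 fold change of -0.89 with SE 0.26 and adjusted p = 0.0484 by edgeR; 6 of the 8 had an unadjusted p under 0.05). This call was lost without the block (adjusted p = 0.0885 by edgeR), and over the alternatives its log2 fold change ran from -1.15 to -0.47. Without Rspo1-positive replicate 2 the adjusted p was 0.309, and among the fits without 1 library the call held only without untreated replicate 2 or 3. With the offset it was -0.85 with an adjusted p of 0.0269 by edgeR, and mt-Nd1 was called as well (-0.64 with an adjusted p of 0.0465).

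Of the 96 nuclear members 88 were tested, and 54 of them rose in Rspo1-negative cells relative to untreated ones, where 15.5% of all genes tested rose. The median of the 88 was a log2 fold change of 0.48, a fold of 1.39, against -0.01 over all genes. No member was called lower by edgeR, with 0 at an unadjusted p under 0.05 and 0 called by DESeq2. The rise was spread over the complexes: 25 of 37 tested genes of complex I rose, 4 of 8 of its assembly factors, 2 of 4 of complex II, 5 of 8 of complex III, 8 of 13 of complex IV and 10 of 18 of ATP synthase, with medians between 0.39 for complex II and 0.61 for complex III. The Rspo1-negative libraries lay above all 6 others in 43 of the 88 genes (48.9%), against 10.3% of all genes, and below all others in 1, against 14.5% of all genes. Against the untreated libraries alone they did not overlap in 50 genes above and 1 below, where 16.4% and 20.0% of all genes did not.

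In complex I, Ndufs8 (ENSMUSG00000059734, chromosome 19, 3908863 to 3912774), which holds iron-sulfur clusters of the arm that passes electrons, had 49.1, 64.2 and 40.6 CPM in untreated and 102, 69.7 and 88.2 CPM in Rspo1-negative cells (a log2 fold change of 0.77 with SE 0.18 and adjusted p = 0.0075 by edgeR). Ndufb11 (ENSMUSG00000031059, chromosome X, 20615326 to 20617619), an accessory subunit of the membrane arm, had 75.5, 101 and 71.4 CPM in untreated and 158, 119 and 145 CPM in Rspo1-negative cells (a log2 fold change of 0.77 with SE 0.16 and adjusted p = 0.00492). In both genes the groups do not overlap, and the smallest rise is at passage 6. Ndufv1, which binds NADH, rose by 0.57 on the log2 scale (adjusted p = 0.00571). Ndufs1, the largest subunit of complex I, had lower values. Its levels were 73.1, 66.2 and 61.7 CPM in untreated and 58.0, 58.0 and 57.8 CPM in Rspo1-negative cells, a lower value in each pair that was not called (a log2 fold change of -0.21 with SE 0.12 and adjusted p = 0.183).

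Among the assembly factors, Ndufaf6 (ENSMUSG00000050323, chromosome 4, 11051045 to 11076205) had the largest rise of any nuclear member, from 2.68, 2.58 and 2.56 CPM to 5.67, 4.36 and 4.91 CPM (a log2 fold change of 0.94 with SE 0.19 and adjusted p = 0.00391 by edgeR). Ndufaf4 had 16.1, 12.2 and 10.8 CPM in untreated and 13.9, 7.86 and 9.61 CPM in Rspo1-negative cells, a log2 fold change of -0.33 that was not called. Complex II split by subunit. Sdhb, its iron-sulfur subunit, had 62.6, 75.5 and 54.7 CPM in untreated and 120.3, 83.8 and 111 CPM in Rspo1-negative cells (a log2 fold change of 0.70 with SE 0.16 and adjusted p = 0.00655). Sdha, the flavoprotein that oxidises succinate, had 240.4, 264 and 252 CPM in untreated, 233, 241 and 223 CPM in Rspo1-negative and 241, 222 and 268 CPM in Rspo1-positive cells and was called in no comparison. The groups of Sdha overlap and those of Sdhb do not, and whether the 2 subunits differ from each other was not tested.

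In complex III, the core protein Uqcrc1 had 163, 188 and 157 CPM in untreated and 282, 227 and 279 CPM in Rspo1-negative cells (a log2 fold change of 0.63 with SE 0.14 and adjusted p = 0.00583 by edgeR), without overlap. Uqcrfs1, the Rieske iron-sulfur protein, was higher at each passage without overlap of the groups and missed the threshold (a log2 fold change of 0.35 with SE 0.13 and adjusted p = 0.0595), and Uqcrb had a value of -0.19 that was not called. In complex IV, Cox4i1 (ENSMUSG00000031818, chromosome 8, 120668222 to 120674207), the ubiquitous form of subunit 4, had 277, 339.6 and 269 CPM in untreated and 593, 396 and 521 CPM in Rspo1-negative cells (a log2 fold change of 0.76 with SE 0.17 and adjusted p = 0.00655), with the smallest step at passage 6. Of its windows, 11.6% are shared with the neighbouring gene Emc8. Cox5a, which binds Cox4i1 in the complex, had 94.2, 97.7 and 86.6 CPM in untreated and 114, 108 and 102 CPM in Rspo1-negative cells and was not called (log2 fold change 0.22, adjusted p = 0.192). In ATP synthase, the catalytic subunit Atp5b was the nuclear member with the highest counts, with 968, 1153 and 971 CPM in untreated and 1409.6, 1203 and 1373 CPM in Rspo1-negative cells. The groups do not overlap, but the test was not passed (a log2 fold change of 0.37 with SE 0.15 and adjusted p = 0.0781 by edgeR). Its partner Atp5a1, whose groups overlap, was not called either (log2 fold change 0.32, adjusted p = 0.121 by edgeR). Of the genes for the membrane ring, Atp5g1 (0.53, adjusted p = 0.0142) and Atp5g2 (0.56, adjusted p = 0.018) rose on the log2 scale and Atp5g3 (0.33, adjusted p = 0.113) was not called.

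With the GC and length offset, several of the genes named above were no longer called against untreated cells: Ndufs8 at 0.39 with an adjusted p of 0.0797, Ndufv1 at 0.20 with an adjusted p of 0.21, Sdhb at 0.32 with an adjusted p of 0.0905, Uqcrc1 at 0.24 with an adjusted p of 0.176, Cox4i1 at 0.32 with an adjusted p of 0.132 and Atp5g2 at 0.08 with an adjusted p of 0.743, by edgeR. Ndufb11, Ndufaf6 and Atp5g1 were still called, at 0.44, 0.70 and 0.85. Without Rspo1-negative replicate 1 the adjusted p was 0.065 for Ndufs8, 0.0553 for Sdhb and 0.0544 for Cox4i1, and without untreated replicate 1 it was 0.0516 for Cox4i1. The calls of Atp5g1 and Atp5g2 were each lost without replicate 1 or 3 of either group.

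The nuclear rise differed between passages, and the number of genes called depended on single libraries and on the GC and length offset. Within passages the median log2 difference of the 88 genes was 0.67 at passage 5, 0.09 at passage 6 and 0.67 at passage 10, with 82, 54 and 80 genes higher. The number called was 7 without Rspo1-negative replicate 1, 13 without untreated replicate 1, 17 without untreated replicate 3 and 25 without Rspo1-negative replicate 3, all of them higher, and 72 without untreated replicate 2, 71 higher and 1 lower. The median stayed between 0.37 and 0.45 in the first 4 of these fits. The share of all genes called in each fit without 1 library was not counted. The part of the smaller number of libraries in these counts was not tested. With the GC and length offset 20 genes were higher and 2 lower, against 9.42% and 10.9% of all genes, and the median was 0.23. Of the 54 genes, 13 were also called with that offset, and 11 of them (Atp5g1, Atp5j2, Cox7a2l, Cox7c, Ndufaf5, Ndufaf6, Ndufb11, Ndufb2, Ndufb5, Uqcrh and Uqcrq) also with an offset from the median transcript, chosen after seeing the data. The 2 genes called lower with the first offset were Atp5j (-0.37 with an adjusted p of 0.0198) and Cox7a1 (-0.79 with an adjusted p of 0.046), by edgeR.

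**Figure D3:**
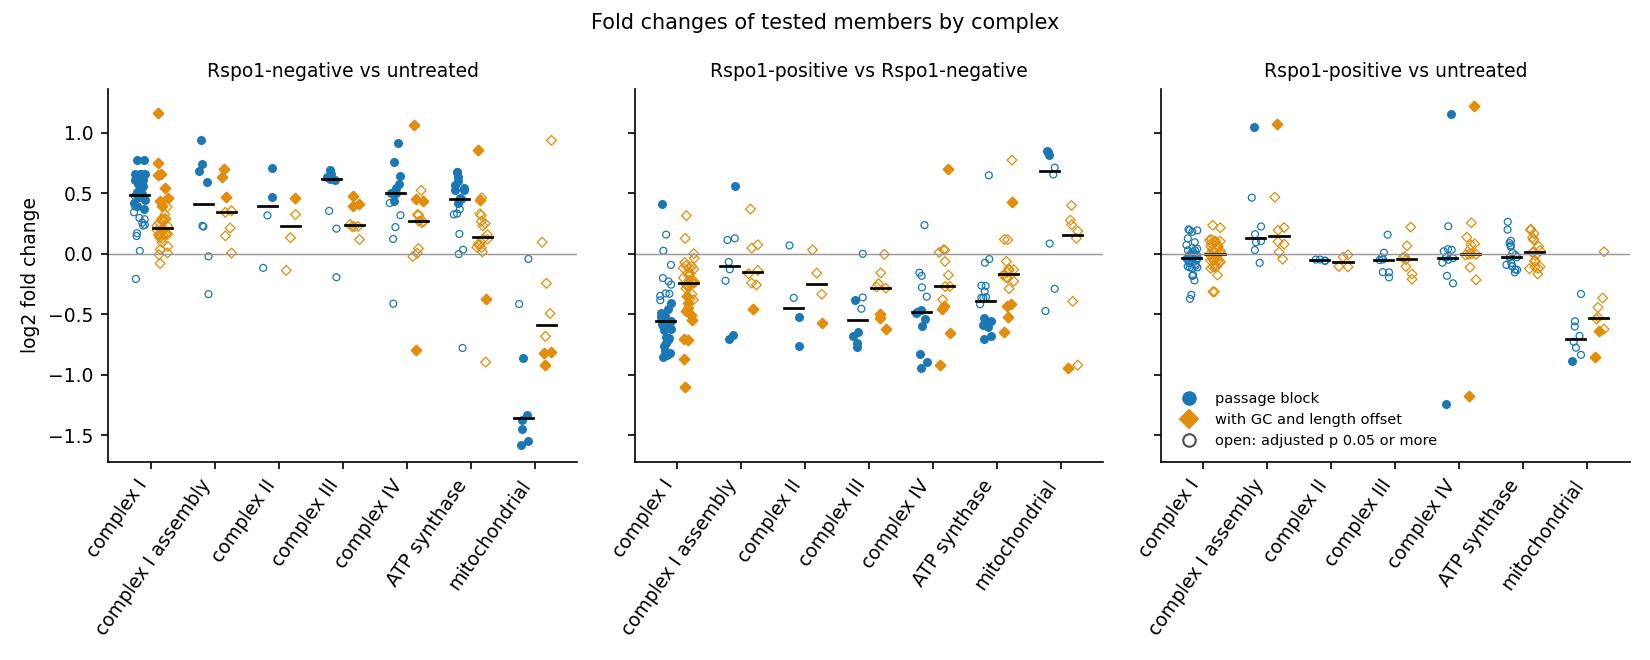
Log2 fold change of each tested member in the 3 comparisons, by complex, with the passage block (circles) and with the GC and length offset (diamonds); filled symbols have an adjusted p under 0.05 by edgeR and black bars are medians. The nuclear median of Rspo1-negative over untreated cells goes from 0.48 to 0.23 with the offset and that of the mitochondrial genes from -1.35 to -0.59, while that of the nuclear genes in Rspo1-positive against untreated cells is -0.03 and -0.0035.

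The nuclear members have the GC content of other genes but shorter transcripts. Their median GC was 50.4%, against 50.3% over all genes tested, and the median length of the longest annotated transcript was 913 bases, against 2681. Across the 88 members, which share the same libraries, the rank correlation of the fold change with GC was 0.52 for Rspo1-negative over untreated cells and -0.55 for Rspo1-positive over Rspo1-negative cells, and with the offset it was -0.40 and 0.35. Set beside genes of like GC, the members still differed from the middle of the distribution. In the bin from 50% to 55% GC the median of 28 members was 0.54 in Rspo1-negative over untreated cells, where all 4552 genes had 0.14, and in the bin from 55% to 60% the median of 20 members was 0.60, where 3319 genes had 0.25. In the bin from 45% to 50%, 25 members had 0.32 where 4369 genes had -0.14. These values describe GC alone; length differs as well, and the part of either in the result beyond the offset fits was not tested.

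**Figure D4:**
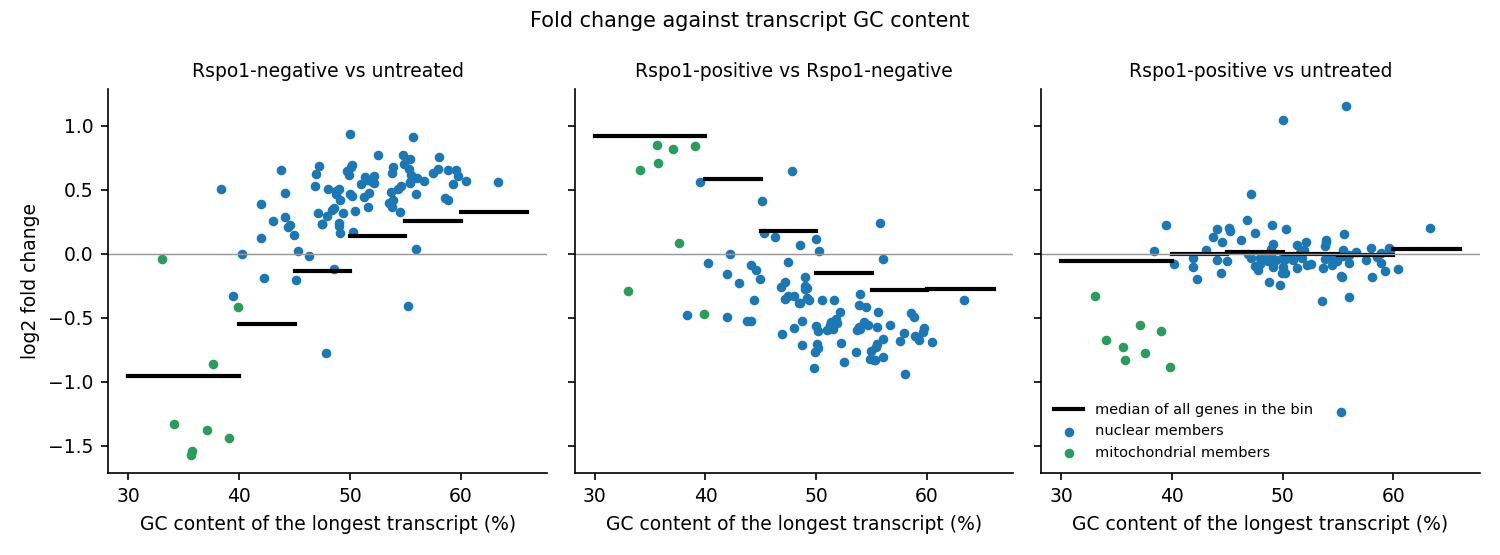
Log2 fold change of tested nuclear and mitochondrial members against the GC content of the longest transcript in the 3 comparisons; black bars are medians of all tested genes in each GC bin (the outer bins are drawn only over the range of the members). In Rspo1-negative over untreated cells the bars climb from -0.96 under 40% GC to 0.33 above 60%, and in Rspo1-positive against untreated cells they stay between -0.06 and 0.04.

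The comparison within Rspo1-treated organoids asks what sets reporter-positive apart from reporter-negative cells, and it shares the Rspo1-negative libraries with the comparison above. Of the 88 nuclear members, 51 were lower and 2 higher in Rspo1-positive cells, where 17.4% and 21.5% of all genes were, and the median was -0.50, against 0.03 over all genes. By complex, 26 of 37 genes of complex I fell, 2 of 8 assembly factors, 2 of 4 of complex II, 5 of 8 of complex III, 8 of 13 of complex IV and 8 of 18 of ATP synthase. The groups did not overlap in 56 genes below and 2 above, where 20.6% and 24.6% of all genes did not. The largest fall was that of Cox4i1, with 254, 245 and 284 CPM in Rspo1-positive cells (a log2 fold change of -0.94 with SE 0.17 and adjusted p = 0.00212 by edgeR), below every Rspo1-negative library. Cox7a2l (ENSMUSG00000024248, chromosome 17, 83501918 to 83517330), which helps to join complexes III and IV into a supercomplex, had 156, 131 and 167 CPM in Rspo1-negative and 79.4, 71.4 and 94.4 CPM in Rspo1-positive cells (a log2 fold change of -0.89 with SE 0.15 and adjusted p = 0.00142), and 13.4% of its windows are shared with Gm6969. Ndufb11 fell by 0.85 and Ndufa7, an accessory subunit of complex I with 209, 123 and 155 CPM in Rspo1-negative and 95.7, 83.5 and 90.9 CPM in Rspo1-positive cells, by 0.83 on the log2 scale. Their adjusted p-values were 0.00278 and 0.00299 by edgeR. The 2 genes that rose were Ndufs1, with 75.7, 71.3 and 83.9 CPM in Rspo1-positive cells (a log2 fold change of 0.41 with SE 0.12 and adjusted p = 0.017), and Ndufaf4, with 16.1, 12.8 and 16.5 CPM (a log2 fold change of 0.56 with SE 0.17 and adjusted p = 0.0233). Ndufs1 did not overlap between the groups, and Ndufaf4 did. Both calls held in 2 of the 6 fits without 1 library: Ndufs1 was lost without replicate 1 or 3 of either group, and Ndufaf4 without replicate 2 or 3 of either group and without the passage block (adjusted p = 0.136 by edgeR).

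With the GC and length offset 23 nuclear members were lower and 2 higher, against 12.3% and 10.6% of all genes, with a median of -0.23. Of the 51 lower genes 17 kept the call, among them Cox4i1 at -0.44 with an adjusted p of 0.0483, Cox7a2l at -0.65 with an adjusted p of 0.00439 and Ndufb11 at -0.47 with an adjusted p of 0.0227 by edgeR. Ndufa7 did not (-0.37 with an adjusted p of 0.0576). Neither did the risen genes Ndufs1 and Ndufaf4 (0.13 with an adjusted p of 0.365, and -0.14 with an adjusted p of 0.525), although Ndufs1 was called with the median transcript (0.51 with an adjusted p of 0.00733), and the 2 higher genes with the longest-transcript offset were Atp5j and Cox6b2. Within passages the median log2 difference was -0.73, -0.29 and -0.46, with 83, 70 and 78 of the 88 genes lower. The number called was 19 without Rspo1-positive replicate 1 or without Rspo1-negative replicate 1, 32 without Rspo1-positive replicate 2, 31 without Rspo1-negative replicate 3 and 68 without Rspo1-negative replicate 2. Here too the share of all genes called in each fit was not counted.

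Between Rspo1-positive and untreated cells, which differ in treatment and in the sorting gate, the nuclear set was nearly level over the 3 passages together, but not within each. The median of the 88 genes was -0.03, and 85 of them did not pass; 2 were higher and 1 lower, where 6.44% and 6.77% of all genes were. The groups did not overlap in 4 genes above and 3 below, where 11.4% and 11.8% of all genes did not. Within passages the median was -0.04, -0.22 and 0.21, with 35, 15 and 80 of the 88 genes higher and 53, 73 and 8 lower. A p-value above the threshold does not show that these genes were equal. For Atp5b, with 998, 1025 and 1087 CPM in Rspo1-positive cells, the log2 fold change was 0.01 with an SE of 0.15, and for Cox4i1 it was -0.18 with an SE of 0.17.

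The 3 genes that differed were 2 isoforms of small complex IV subunits with low levels and an assembly factor. Cox6b2 (ENSMUSG00000051811, chromosome 7, 4751792 to 4753094), the form of subunit 6B known from testis, had 2.74, 2.17 and 0.806 CPM in untreated, 5.06, 4.36 and 1.44 CPM in Rspo1-negative and 4.6, 5.23 and 2.27 CPM in Rspo1-positive cells. Its Rspo1-positive value exceeded the untreated one at each passage, although the groups overlap and its level was lowest at passage 10 in all 3 groups (a log2 fold change of 1.15 with SE 0.23 and adjusted p = 0.00613 by edgeR). Without the passage block it was not called (adjusted p = 0.339 by edgeR). The rise over untreated cells was also called in Rspo1-negative cells (a log2 fold change of 0.91 with SE 0.23 and adjusted p = 0.0103), a call lost with the offset (0.52 with an adjusted p of 0.115) and without Rspo1-negative replicate 1 (adjusted p = 0.0838). Ndufaf6 had 5.07, 5.87 and 5.23 CPM in Rspo1-positive cells, above all 3 untreated libraries (a log2 fold change of 1.05 with SE 0.19 and adjusted p = 0.00372), and the call held in all 15 alternatives, with adjusted p-values from 4.55e-05 to 0.0344. Both Rspo1 groups thus exceeded the untreated one, and the Rspo1 groups did not differ detectably from each other (log2 fold change 0.11, SE 0.18, adjusted p = 0.656). Cox7a1 (ENSMUSG00000074218, chromosome 7, 30184144 to 30186078), the form of subunit 7A known from heart and skeletal muscle, had 4.83, 7.39 and 3.94 CPM in untreated, 6.09, 4.48 and 2.03 CPM in Rspo1-negative and 2.71, 2.36 and 1.74 CPM in Rspo1-positive cells. The Rspo1-positive libraries lie below all untreated ones (a log2 fold change of -1.24 with SE 0.26 and adjusted p = 0.00918 by edgeR), and the adjusted p was 0.111 without the block and 0.0754 without Rspo1-positive replicate 2. With the offset, where 7.05% of all genes were called higher and 10.5% lower, all 3 kept the call, at 1.22 for Cox6b2, 1.07 for Ndufaf6 and -1.17 for Cox7a1. The counts behind these values were 28 to 190 per library for Cox6b2, 77 to 213 for Ndufaf6 and 48 to 229 for Cox7a1.

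**Figure D5:**
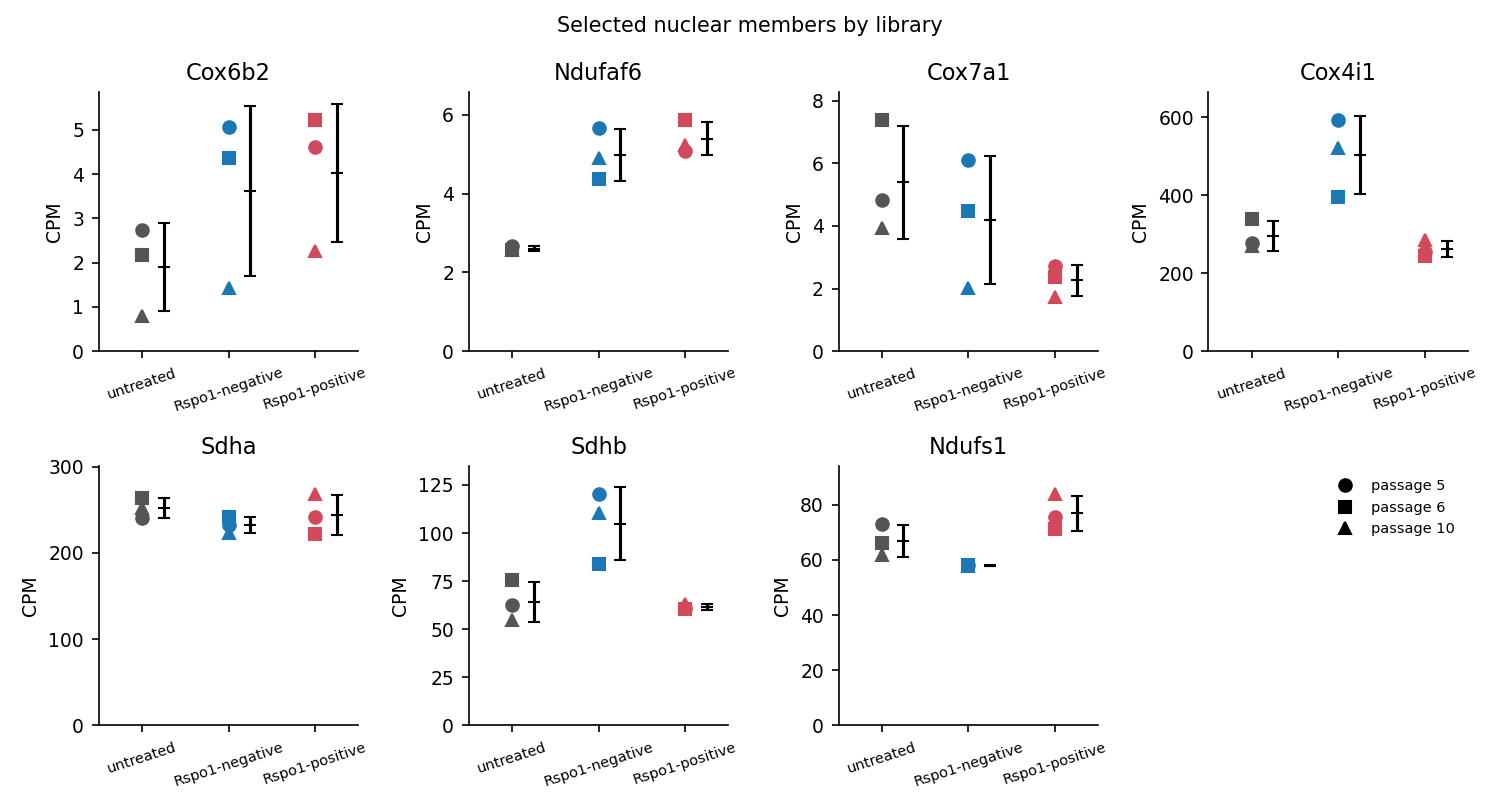
CPM by library of Cox6b2, Ndufaf6, Cox7a1, Cox4i1, Sdha, Sdhb and Ndufs1; symbols mark the passage, bars give mean and SD of 3 libraries, and each axis starts at 0. Ndufaf6 lies between 4.36 and 5.87 CPM in the 6 Rspo1 libraries and between 2.56 and 2.68 CPM in the untreated ones, and Cox4i1 is highest in the 3 Rspo1-negative libraries.

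Most tissue-restricted isoforms were at or near the floor of the counts. Cox6a2 and Cox8b, the heart and muscle forms, had between 0 and 1 reads in any library, Ndufa4l2 had between 0 and 2, and Cox4i2, the lung form of subunit 4, had between 1 and 17. The expressed forms were Cox6a1 with 161 ± 20.7 CPM, Cox6b1 with 169 ± 20.9 CPM, Cox7a2 with 89.3 ± 10.5 CPM and Cox8a with 173 ± 17.9 CPM in untreated cells (SD, n = 3). Cox6b1 and Cox7a2 rose in Rspo1-negative cells, by 0.55 and 0.57 on the log2 scale with adjusted p-values of 0.0172 and 0.0199 by edgeR. Both calls were lost with the offset, at 0.27 with an adjusted p of 0.118 and 0.26 with an adjusted p of 0.159, and without replicate 1 or 3 of either group. Cox8a rose by 0.44 (adjusted p = 0.039), but with the offset its value was 0.00, and the call was also lost without the passage block (adjusted p = 0.0792) and without replicate 1 or 3 of either group. Cox6a1 missed the threshold at 0.42 (adjusted p = 0.0521). Cox7b (0.12, adjusted p = 0.511) and Ndufa4 (0.28, adjusted p = 0.236) were not called, and both were with the offset (0.45 with an adjusted p of 0.0207, and 0.46 with an adjusted p of 0.0344). The 4 processed pseudogenes had between 0 and 6 reads in any library. Reads of Atp5l, Ndufb4 and Atp5h may be split with copies, since 76.0%, 35.2% and 36.5% of their windows are shared. Over the 66 tested members with under 10% shared windows, 41 were called higher in Rspo1-negative over untreated cells without the offset, at a median of 0.48. Of all genes tested, 15.5% were.

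Genes of the same organelle outside the rule were counted in lists chosen with earlier results known. Of 78 mitochondrial ribosomal protein genes, which make the ribosome that translates the 13 mitochondrial messages, 50 rose and 1 fell in Rspo1-negative over untreated cells, where 15.5% and 20.0% of all genes did, with a median of 0.46. With the offset 27 were higher and 1 lower, against 9.42% and 10.9% of all genes. Mrps24 had 36.1, 38.1 and 31.6 CPM in untreated and 64.2, 55.2 and 56.4 CPM in Rspo1-negative cells (a log2 fold change of 0.74 with SE 0.12 and adjusted p = 0.00119 by edgeR), Mrpl12 rose by 0.83 (adjusted p = 0.0023), and Mrpl50 was the gene that fell (-0.60, adjusted p = 0.00627). The call of Mrpl50 was lost with the offset (-0.23 with an adjusted p of 0.154), so the 1 lower gene there is another. In Rspo1-positive over Rspo1-negative cells 45 of the 78 fell and 1 rose, where 17.4% and 21.5% of all genes did. Against untreated cells 1 fell, where 6.77% of all genes did: Mrps6, with 119, 97.3 and 102 CPM in untreated and 60.7, 46.5 and 62.4 CPM in Rspo1-positive cells (a log2 fold change of -0.92 with SE 0.12 and adjusted p = 4.58e-04). Of 46 further assembly factors, 12 rose and 2 fell in Rspo1-negative over untreated cells, against the same 15.5% and 20.0%. Sco2, which carries copper to complex IV, rose by 0.59 and Sdhaf1, which helps to build complex II, by 0.71 on the log2 scale (adjusted p-values 0.00531 and 0.00479). With the offset Sco2 was not called (0.16 with an adjusted p of 0.313) and Sdhaf1 was (0.54 with an adjusted p of 0.0194). Of 18 other subunits and electron carriers 6 rose and 1 fell, against the same 15.5% and 20.0% of all genes. Cyc1, cytochrome c1 of complex III, rose by 0.63 (adjusted p = 0.00493 by edgeR), a call lost with the offset (0.26 with an adjusted p of 0.116). Etfa, which feeds electrons from fatty acid oxidation to ubiquinone, had a value of -0.37 (adjusted p = 0.0327) that was called in 4 of 15 alternatives and in 1 of the 6 fits without 1 library, the one without untreated replicate 3. Of 19 genes of pyruvate entry and the citric acid cycle 4 were called higher and 2 lower, shares near those of all genes.

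Of 31 tested genes for transcription factors, coactivators and the machinery of mitochondrial RNA, 4 were called higher and 7 lower in Rspo1-negative over untreated cells, shares near the 15.5% and 20.0% of all genes. With the offset 7 were higher and 0 lower, against 9.42% and 10.9%. Ppargc1a, the coactivator PGC-1alpha known as an inducer of mitochondrial genes, had 4.86, 4.95 and 3.68 CPM in untreated, 3.7, 6.46 and 3.01 CPM in Rspo1-negative and 10.4, 11.8 and 9.96 CPM in Rspo1-positive cells. The Rspo1-positive libraries lie above the other 6, and Ppargc1a was higher than in untreated cells (a log2 fold change of 1.26 with SE 0.20 and adjusted p = 0.00154 by edgeR), also in all 15 alternatives. Its relative Ppargc1b was higher too, with 2.0, 1.57 and 2.68 CPM in untreated and 3.82, 3.1 and 5.21 CPM in Rspo1-positive cells (a log2 fold change of 0.95 with SE 0.24 and adjusted p = 0.0238). That call held in 10 of 15 alternatives: it was lost without the passage block (adjusted p = 0.12) and without replicate 1 or 3 of either group, with adjusted p-values up to 0.123. Against Rspo1-negative cells Ppargc1a differed by 1.34 (adjusted p = 7.94e-04), and with the offset by 0.44 with an adjusted p of 0.0766. In Rspo1-negative over untreated cells Ppargc1a was not called (log2 fold change -0.08, adjusted p = 0.787 by edgeR). With the GC and length offset it was called higher there, at 0.76 with an adjusted p of 0.0122 by edgeR. That was the 1 call among the 15 alternatives of that comparison. Polrmt, the RNA polymerase of mitochondria, rose in Rspo1-negative over untreated cells (a log2 fold change of 0.56 with SE 0.12 and adjusted p = 0.00456). Tfam, which packs mitochondrial DNA and starts its transcription, had 31.8, 33.2 and 27.3 CPM in untreated and 32.0, 27.8 and 31.3 CPM in Rspo1-negative cells, a log2 fold change of -0.02 that turned to 0.37 with an adjusted p of 0.0486 with the offset. Nrf1 was called in no comparison, and Gabpa fell by 0.82 in Rspo1-negative over untreated cells (adjusted p = 7.04e-04), a value of -0.08 with the offset.

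Nuclear respiratory factor 1 binds the promoters of many respiratory genes, so promoter windows were searched for its motif (GCGCA, then T or C, then GCGC) on both strands. RefSeq windows (GRCm38.p6) of 250 bases before and 50 after the start site were found for 73 of the 95 nuclear symbols, in 78 windows, of which 15.4% held the letters, against 2.27% of all 32851 windows. The letters AAGATGGC, known for YY1, were in 12.8% of member windows and 2.75% of all, ACCGGAAGT or GCCGGAAGT, known for ETS factors, in 5.13% and 2.33%, and TCAAGGTCA, known for Esrra, in 2.56% and 0.423%. In Rspo1-negative over untreated cells 8 of 12 tested members with the Nrf1 letters rose, at a median of 0.59, and 37 of 60 without them, at a median of 0.50. Of all genes tested 15.5% rose. With the YY1 letters 6 of 10 rose (median 0.46) and without them 39 of 62 (0.50). For the ETS letters it was 4 of 4 (0.45) and 41 of 68 (0.50). For the Esrra letters it was 0 of 2 (0.32) and 45 of 70 (0.50). A match describes letters and not a bound site. The 250 bases before the start site are printed for the 3 members with the highest level whose Nrf1 letters lie there, Atp5c1, Cox6a1 and Sdhd, with the letters in capitals 17, 162 and 79 bases before the start site, and for Cox6b2 and Cox7a1, the isoforms that differed from untreated cells, which hold none of these letters.
Atp5c1, chr2:10080433-10080682, minus strand: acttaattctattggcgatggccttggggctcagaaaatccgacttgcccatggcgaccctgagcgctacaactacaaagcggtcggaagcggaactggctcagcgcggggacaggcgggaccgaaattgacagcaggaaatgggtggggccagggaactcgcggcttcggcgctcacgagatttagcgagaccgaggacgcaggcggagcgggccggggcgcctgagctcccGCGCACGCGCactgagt
Cox6a1, chr5:115348959-115349208, minus strand: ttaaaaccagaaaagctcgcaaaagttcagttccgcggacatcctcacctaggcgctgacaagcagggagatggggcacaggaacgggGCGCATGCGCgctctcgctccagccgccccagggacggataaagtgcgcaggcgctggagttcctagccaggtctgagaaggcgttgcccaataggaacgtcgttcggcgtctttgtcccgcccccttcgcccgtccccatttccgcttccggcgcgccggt
Sdhd, chr9:50603850-50604099, minus strand: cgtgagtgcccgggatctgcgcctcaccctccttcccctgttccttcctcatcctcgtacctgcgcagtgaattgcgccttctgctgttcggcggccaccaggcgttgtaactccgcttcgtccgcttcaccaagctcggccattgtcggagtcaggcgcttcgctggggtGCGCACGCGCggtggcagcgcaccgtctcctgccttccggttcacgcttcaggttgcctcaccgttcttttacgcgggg
Cox6b2, chr7:4753095-4753344, minus strand: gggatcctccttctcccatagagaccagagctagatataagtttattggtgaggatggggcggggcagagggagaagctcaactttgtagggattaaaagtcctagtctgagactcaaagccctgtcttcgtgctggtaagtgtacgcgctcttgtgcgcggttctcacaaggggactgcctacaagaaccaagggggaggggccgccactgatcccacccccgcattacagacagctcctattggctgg
Cox7a1, chr7:30183921-30184170, plus strand: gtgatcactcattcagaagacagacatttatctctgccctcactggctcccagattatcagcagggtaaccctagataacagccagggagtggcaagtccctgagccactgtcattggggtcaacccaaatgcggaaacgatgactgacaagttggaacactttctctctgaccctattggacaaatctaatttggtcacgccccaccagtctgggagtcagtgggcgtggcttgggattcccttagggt

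Fewer nuclear members than genes in general differed the same way with passage in every group. From passage 5 to passage 10, 5 of 88 members were higher and 18 lower in all 3 groups, 5.68% and 20.5%, where 29.1% and 27.2% of all genes were. Of the 8 mitochondrial genes 3 were lower in all 3 groups. Cox6b2 differed most, with log2 differences between passages 10 and 5 of -1.65 in untreated, -1.74 in Rspo1-negative and -0.99 in Rspo1-positive cells. Each passage is 1 culture, so these differences have no test.

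The authors' deposited tables of the 3 comparisons list 89 nuclear and 8 mitochondrial members. In the authors' deposited table of Rspo1-negative against untreated cells, 48 nuclear members are higher and 4 mitochondrial members lower at an adjusted p under 0.05, where 11.3% and 15.7% of all its genes are. In the authors' deposited table that sets Rspo1-positive beside Rspo1-negative cells, 64 nuclear members are lower and 2 higher, and 5 mitochondrial members higher and 1 lower, where 21.4% of all its genes are lower and 22.6% higher. In the authors' deposited table of Rspo1-positive against untreated cells 2 nuclear members are higher and 1 lower, where 6.49% and 7.36% of all its genes are, and 0 mitochondrial members are called.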

How the data were processed

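RNA was measured in 9 libraries, 3 per group. Per the submitters' processing notes, reads were handled with Trimmomatic 0.35, FastQC 0.11.2, STAR 2.5.1b, featureCounts and DESeq2 on GRCm38; settings for strand and for reads with several positions are not given in the sources used here. The authors deposited raw counts per gene for each library. The deposited FPKM values were not used. The authors' deposited comparison tables hold log2 fold changes and their standard errors, p-values, a mean normalised signal and a test score per gene; only their log2 fold changes and adjusted p-values were used, as counts of members.

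Counts were tested with edgeR 4.0.16 (quasi-likelihood, TMM factors, R 4.3.3) over all 9 libraries with group and passage as terms. Genes needed a count of 10 by edgeR's filter by group and a total of 15, which left 17011, and p-values were adjusted over all of them by the Benjamini-Hochberg method with a threshold of 0.05. Standard errors were taken from the fold change and its F statistic. CPM use TMM factors. The fit was tested on simulated data. Replicate numbers mark passages of 1 line, which pairs the libraries: deviations from group means correlated between 0.12 and 0.57 in 9 same-passage pairs and between -0.48 and 0.08 in 18 others. The chi-square per gene between replicates was at least 52.7, so no 2 replicates agreed within sampling noise. Totals of 23423979 to 37351448 counts make counting error small beside the spread between libraries, except for genes with few reads.

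The GC and length offset was a spline with 5 degrees of freedom per library on GC content and log2 length of the longest GENCODE M21 transcript; the same offset from the median transcript was chosen after seeing the data. In all, 15 alternatives were run per comparison, among them DESeq2 1.42.0. Members and lists were chosen with earlier results of these data known. Named genes are the mitochondrial members, core subunits, paralogous isoforms, the 4 nuclear members with the largest called rise and fall in each comparison, members left out by the filter, the 3 list genes with the smallest adjusted p in each direction, and 7 regulators; other members are named as examples chosen after their values were seen. One gene that this rule names is not reported here. Figures were drawn with matplotlib 3.10.9 under Python 3.11.15.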

Additional observations from a re-analysis of the deposited data

How the results depend on the processing

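In Rspo1-negative over untreated cells, 22 nuclear and 3 mitochondrial members were called with the GC and length offset, and 24 and 2 with the median transcript. In Rspo1-positive over Rspo1-negative cells, these offsets gave 25 and 30 nuclear calls and 1 mitochondrial call each, and against untreated cells 2 mitochondrial calls each. Without the passage block, Rspo1-positive against untreated cells gave 1 nuclear call, and the mitochondrial calls were 0 in that comparison and 0 against Rspo1-negative cells, with 4 and 3 at an unadjusted p under 0.05 by edgeR. DESeq2 called 2 mitochondrial members in Rspo1-positive against untreated cells (0 higher, 2 lower) and 2 against Rspo1-negative cells (1 higher, 1 lower). Without the filter on low counts the mitochondrial calls were 7 (all lower) and 6 (5 higher, 1 lower) in the same order, and with only the 6 libraries compared 0 and 6 (5 higher, 1 lower). Shares of all genes called are given above for the main fit and the longest-transcript offset only, and were not counted in the other fits.

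Leaving out 1 library at a time, nuclear calls ran from 7 to 72 in Rspo1-negative over untreated cells, from 19 to 68 in Rspo1-positive over Rspo1-negative cells and from 2 to 4 in Rspo1-positive against untreated cells, and mitochondrial calls from 5 to 6, 0 to 4 and 0 to 2. The share of all genes called in these fits was not counted. Some single genes changed sign. In Rspo1-positive over Rspo1-negative cells the log2 fold change was -0.14 for Ndufaf4, 0.0336 for Cox8a, 0.0117 for Cox6a1 and -0.0259 for Mrpl50 with the longest-transcript offset, and 0.00621 for Esrra, -0.0167 for Ndufaf4, -0.0232 for Cox15, -0.18 for Mrpl50 and 0.36 for Epcam with the median-transcript offset. In Rspo1-negative over untreated cells it was 0.37 for Tfam and 0.76 for Ppargc1a with the longest-transcript offset, both called higher. With the median-transcript offset it was 0.16 for Pnpt1 and 0.0879 for Cox15, neither of them called. The cause was not tested. Few reads limit what can be said of mt-Nd3, with 4 to 21 reads, and of the 13 members that were not tested; the part of depth in their low counts was not tested.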
